A study of Mus musculus with 16 samples.

Results

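The elongases and desaturases of fatty acids were compared between 2 fat depots of the mouse. The set held 10 genes, the elongases Elovl1 to Elovl7, the stearoyl-CoA desaturases Scd1 and Scd2, and the fatty acid desaturase Fads2. Its members were all probe sets that the annotation of the platform gives to exactly 1 of these symbols, which were 27 of 45101 probe sets, and all 10 genes had at least 1 among the 18194 genes with a value. Total RNA of white fat from the subcutaneous region (sWAT) and of the brown fat between the shoulder blades (BAT) was taken from LACA mice, a stock of laboratory mice, and hybridised to Affymetrix arrays of the mouse genome. All animals were untreated, fed standard chow and called male in the labels, and their age is not given. Each tissue had 4 replicates with 2 arrays each, 16 arrays in all, and the study asked which genes differ between the 2 tissues. The 2 arrays of a replicate were averaged, so that n = 4 per tissue throughout. The labels name 1 array of each replicate biological and the other technical. The main p-values rest on the spread of the difference between the tissues over the 4 replicate numbers, and not on that between arrays. The limma fit also draws the spread of each gene toward that of all genes. Its standard errors, intervals and p-values therefore do not rest on the 4 differences of a gene alone.

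Elongases add carbon pairs to long fatty acids at the endoplasmic reticulum, in a cycle of condensation, reduction, dehydration and a further reduction, and the elongase sets which chain lengths enter it. Desaturases place a double bond in the chain with electrons passed on by cytochrome b5 and its reductase. In brown fat, Elovl3 is known for its strong rise on cold exposure, and the elongase Elovl6 and the desaturase Scd1 are classic targets of the lipogenic factors of white and brown fat and liver.

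Values are on the log2 scale and stand relative to the median of the probe set over the 16 arrays, since the deposited table is centred in this way. They give differences between samples and not the level of a gene, so that no member can be ranked against another by its level. A difference is BAT minus sWAT with its standard error from limma (SE, n = 4), tested with replicate numbers as a block. A gene was called when its Benjamini-Hochberg adjusted p over all genes was under 0.05. Precision is limited by the small number of arrays.

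Some replicates stood apart from the rest. Xist, made from the silenced X chromosome of females, lay between 5.74 and 6.36 in BAT replicates 1 to 3 but was -0.26 in BAT replicate 4 and -0.27 to -0.11 in sWAT. Y-linked genes, 3 in number, ran the other way, with a mean between -2.33 and -1.98 in BAT replicates 1 to 3 but 0.18 in BAT replicate 4 and 0.20 to 0.39 in sWAT. These values go against the label male for 3 of the 4 BAT replicates. By them BAT and sWAT of numbers 1 to 3 did not come from 1 animal, so the block is not a true pairing there. For number 4 this is not settled. On 2 arrays, the first of sWAT replicate 3 and the second of BAT replicate 1, the mean difference of 5′ minus 3′ signal for Gapdh and Actb was -4.79 and -3.56 against -1.23 to 0.46 elsewhere, and the median difference between the 2 arrays over the 27 probe sets was 0.332 in these replicates against 0.133 in the others. Brown adipocyte markers were called higher in BAT for 6 of 6 genes, Ucp1 by 7.58 ± 0.49 with adjusted p = 8.5e-05 from limma. Skeletal muscle markers were higher in BAT for 6 of 6 genes as well, their mean being 2.28, 3.40, 2.39 and 4.32 over BAT replicates 1 to 4 and -2.17 to -1.65 in sWAT, and 4 of 4 B cell genes and 4 of 4 T cell genes with a value were lower in BAT. Of the 4 adipocyte markers with a value only Lipe was called, at 0.70 ± 0.19, while Adipoq differed by 0.21 ± 0.12, and of 5 epithelial and skin markers 2 were higher and 1 lower. Of 3 Schwann cell markers only S100b had a value, and it was higher by 2.96 ± 0.31. The part of other cells in the differences of the members was not tested, and in such bulk samples fewer cells of a type and less RNA per cell cannot be told apart.

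Of the 10 genes, Elovl3 and Elovl6 showed higher expression in BAT and Elovl1 showed lower expression, while 7 did not pass the test. Over all genes 21% were called higher in BAT and 17.5% lower, so that the share of members called was not above that of the array as a whole. All 3 members called differed at least 2-fold. Of all genes 7.13% were both called and at least 2-fold higher, and 8% were both called and at least 2-fold lower. The median difference over the 10 genes was 0.04, and that over all genes was 0.15. On probe sets, 3 of 27 were called higher (15.1% of all probe sets) and 4 lower (17.3%). An unadjusted p under 0.05 was seen for 10, a count for which the share over all probe sets was not computed. The 4 BAT values lay fully above those of sWAT for 3 probe sets, against 23.2% of all probe sets, and fully below for 4, against 17.7%. Leaving out replicate 4, or the 2 arrays of low 5′ signal, left 2 genes higher and 1 lower. The paired test of the methods called 0 higher and 0 lower after adjustment, with 3 higher and 1 lower at an unadjusted p under 0.05.

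**Figure D1:**
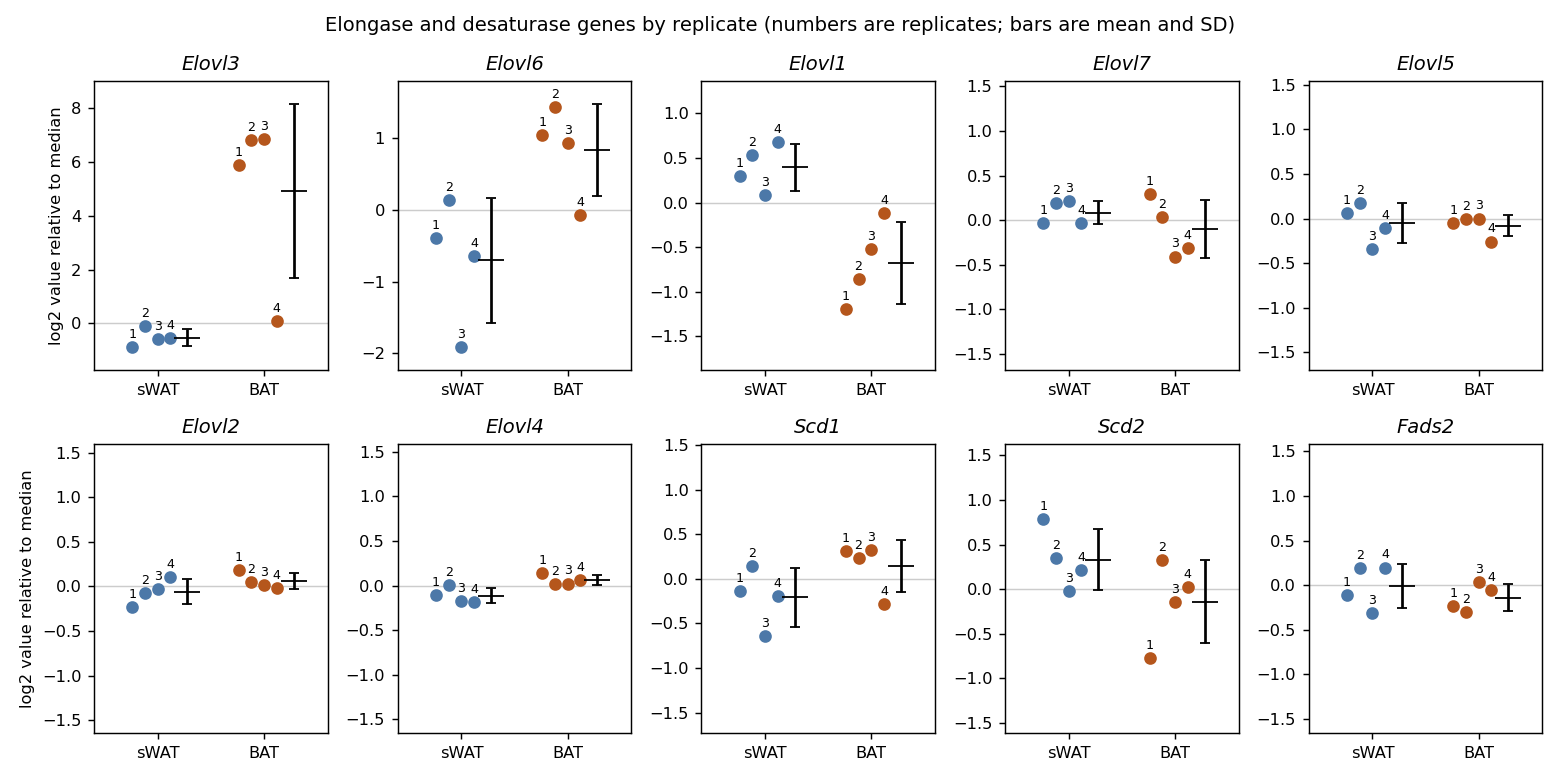
Value of each of the 10 genes in each replicate of sWAT (blue) and BAT (brown), as log2 relative to the median over the arrays, with points numbered by replicate and bars for the mean and SD of the 4. The vertical axis differs between panels, and BAT replicate 4 of Elovl3 lies at 0.10 while BAT replicates 1 to 3 lie between 5.89 and 6.86.

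Elovl3, the elongase of saturated and monounsaturated very long chains, had the largest difference of the 10 genes. Its single probe set (1420722_at) stood at -0.89, -0.11, -0.59 and -0.54 in sWAT replicates 1 to 4 and at 5.89, 6.82, 6.86 and 0.10 in BAT replicates 1 to 4. All BAT values lay above all sWAT values, but BAT replicate 4 lay only 0.63 above the mean of sWAT while the other BAT replicates lay 7.06 above it on average. The difference was 5.45 ± 1.06, or 43.7-fold (adjusted p = 0.0070), with a 95% interval of 2.93 to 7.96. Without replicate 4 it was 7.05, and without replicate 1 the adjusted p was 0.044 over genes and 0.051 over probe sets. The paired test of the methods, on the same replicates but with the spread of Elovl3 alone, gave an adjusted p of 0.11.

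The 3 genes closest to Elovl3 over the 8 replicate values, by the mean absolute difference, were Xist (0.40), the cytochrome P450 gene Cyp2b10 (1.16) and the asparaginase gene Aspg (1.49). Among the 8 replicates each was high in BAT replicates 1 to 3 alone. Cyp2b10 stood at 4.96, 1.22 and 4.71 there and at 0.04 in BAT replicate 4, and Aspg at 2.77, 3.15 and 2.93 there and at 0.18 in BAT replicate 4. For Elovl3 the tissue and the state of the sex-linked genes therefore cannot be told apart in 3 of the 4 BAT replicates. The same limit holds for every other difference between BAT and sWAT given here, those of Elovl6, Elovl1 and the pathway genes included. Replicate 4, the number with low Xist in both tissues, gave a difference of 0.63 for Elovl3. It comes from a single sample of each tissue, which allows no test.

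Elovl6, which lengthens palmitate to stearate, was the other gene with higher expression in BAT. Its values were -0.40, 0.14, -1.92 and -0.64 in sWAT replicates 1 to 4 and 1.05, 1.44, 0.94 and -0.07 in BAT replicates 1 to 4. The tissues overlapped, since BAT replicate 4 lay below sWAT replicate 2. The difference was 1.54 ± 0.33, or 2.91-fold (adjusted p = 0.010). Replicate number 3 gave the largest difference, 2.86, and number 4 the smallest, 0.57. Its adjusted p by the paired test of the methods was 0.12.

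The 3 probe sets of Elovl6 differed by similar amounts but rested on different replicates. Probe sets 1417403_at and 1417404_at stood at -3.27 and -2.31 in sWAT replicate 3, and between -0.82 and 0.35 in the other sWAT replicates. Of the 2 arrays of that replicate, the first has low 5′ signal, and the second, without it, was low as well at -2.32 and -2.63. Probe set 1442656_at stood between -0.39 and -0.17 in all of sWAT and at 1.78, 2.20, 0.82 and 0.09 in BAT replicates 1 to 4. The first differed by 1.66 ± 0.59 (adjusted p = 0.071), the second by 1.46 ± 0.42 (adjusted p = 0.036), and the third was 2.84-fold higher in BAT (adjusted p = 0.014). With the 2 arrays of low 5′ signal left out, Elovl6 differed by 1.56 (adjusted p = 0.0060), and without replicate 3 by 1.10 (adjusted p = 0.0096).

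Elovl1, an elongase of very long saturated chains that feed sphingolipids, showed lower expression in BAT. Its values were 0.30, 0.53, 0.08 and 0.68 in sWAT replicates 1 to 4 and -1.20, -0.85, -0.52 and -0.12 in BAT replicates 1 to 4, and the tissues did not overlap. The difference was -1.07 ± 0.18, which is 2.10-fold higher expression in sWAT (adjusted p = 0.0037). With the 2 arrays of low 5′ signal left out it was -1.06 (adjusted p = 7.0e-04), and by the paired test of the methods the adjusted p was 0.065. Of its 4 probe sets, 3 were called lower, 1443820_x_at at -1.18, 1455994_x_at at -1.26 and 1456530_x_at at -1.55, and their 4 BAT values each lay below their 4 sWAT values. The remaining probe set, 1425676_a_at, differed by -0.29 ± 0.38 (adjusted p = 0.57) and read -2.90 and 0.07 on the 2 arrays of sWAT replicate 3, the first of them of low 5′ signal. Without replicate 3 this probe set differed by -0.82 (adjusted p = 0.018). The 3 called carry the suffix _x_at of the platform, which marks probes that may also bind other sequence, while _a_at marks probes shared by transcripts of the same gene.

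**Figure D2:**
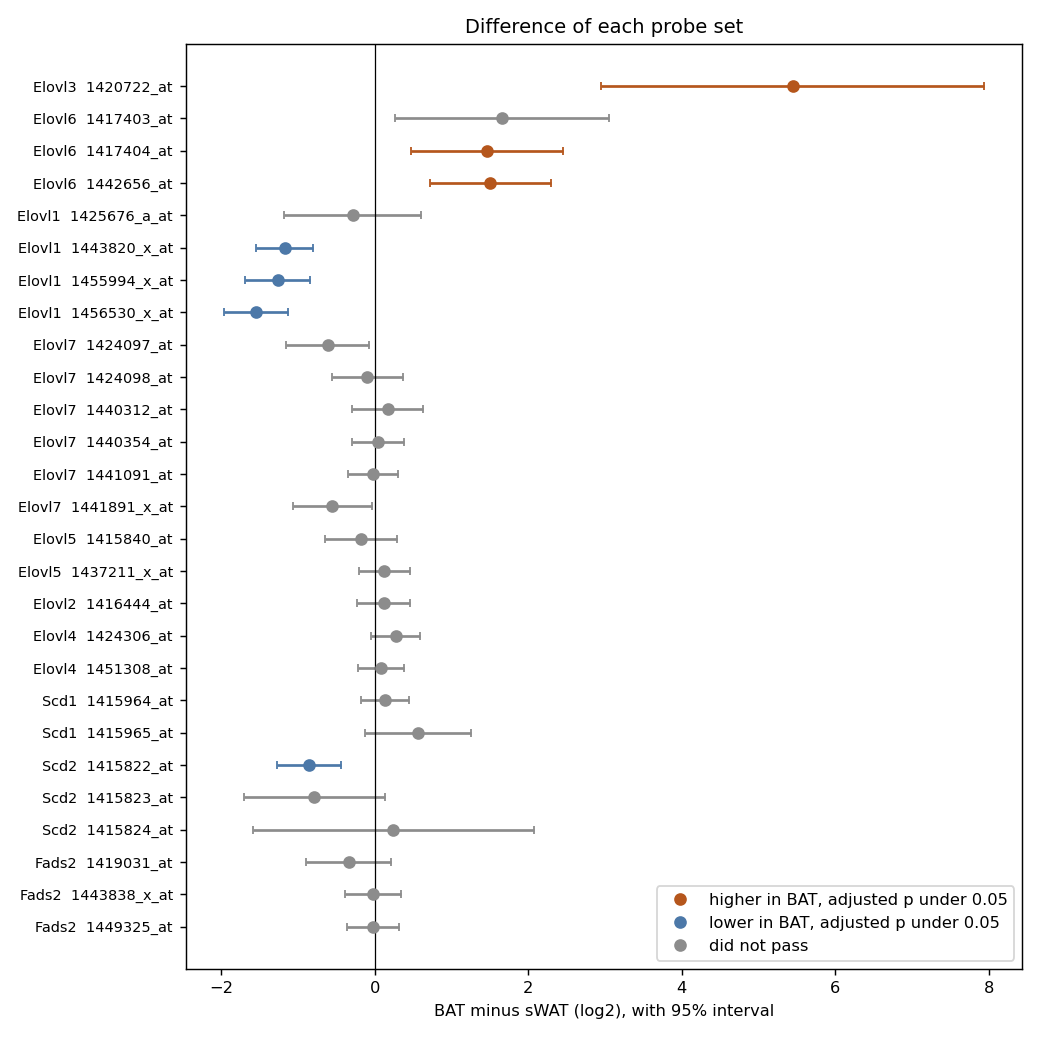
Difference of each of the 27 probe sets, BAT minus sWAT on the log2 scale, with its 95% interval from limma and coloured by the call over all probe sets. Those of Elovl1 called lower lie at -1.18 to -1.55 beside 1 at -0.29, and those of Scd2 lie at -0.86, -0.79 and 0.24.

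Windows of 250 bases before the start of transcription were read for the members from RefSeq on GRCm38.p6, where 7 of the 10 genes matched and Elovl3, Scd1 and Scd2 did not. They were searched on both strands for the letters TCACNCCAC, a form of the sterol regulatory element, CACGTG, the E-box that ChREBP and other factors bind, AGGTCA, the half-site of nuclear receptors, and CCAAT, and no 2 matches overlapped in the windows of the members. Over all 32851 windows of this length 1.05% held the first, 6.02% the second, 14% the third and 33.8% the fourth. The windows of the members called, Elovl6 and both starts of Elovl1, are shown because their genes differed in opposite directions, with the matches in capitals:
Elovl6, chr3:129532136-129532385, plus strand: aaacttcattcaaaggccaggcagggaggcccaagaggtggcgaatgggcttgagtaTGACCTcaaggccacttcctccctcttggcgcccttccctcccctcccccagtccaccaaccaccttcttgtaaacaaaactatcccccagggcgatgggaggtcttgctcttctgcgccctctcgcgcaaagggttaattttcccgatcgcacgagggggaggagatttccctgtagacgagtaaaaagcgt
Elovl1, chr4:118427843-118428092, plus strand: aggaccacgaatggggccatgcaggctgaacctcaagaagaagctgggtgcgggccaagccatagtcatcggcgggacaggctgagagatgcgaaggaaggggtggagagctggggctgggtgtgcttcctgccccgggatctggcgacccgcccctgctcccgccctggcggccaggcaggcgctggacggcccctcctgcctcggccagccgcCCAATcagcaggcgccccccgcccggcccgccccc
Elovl1, chr4:118429451-118429700, plus strand: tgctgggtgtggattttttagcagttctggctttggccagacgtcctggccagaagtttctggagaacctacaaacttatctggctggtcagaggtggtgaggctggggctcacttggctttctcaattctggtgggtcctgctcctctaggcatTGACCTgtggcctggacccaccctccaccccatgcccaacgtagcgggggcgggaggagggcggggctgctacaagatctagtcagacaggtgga
Elovl6 and the second start of Elovl1 each held AGGTCA once, on the opposite strand and so printed as TGACCT, with its first base 193 and 95 bases before the start. The first start of Elovl1 held CCAAT with its first base 35 bases before the start. Among the members that did not pass the test, Elovl5 held CACGTG 161 bases before its start and CCAAT on the opposite strand at 71 and 17 bases, and Elovl2, Elovl4, Elovl7 and Fads2 held none of the 4 motifs in this window. These matches describe the letters of the windows only.

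Scd1, the main stearoyl-CoA desaturase of fat and liver, which makes oleate, did not pass the test. Its values were -0.14, 0.15, -0.64 and -0.19 in sWAT replicates 1 to 4 and 0.31, 0.23, 0.32 and -0.28 in BAT replicates 1 to 4. BAT replicates 1 to 3 lay above all sWAT values and BAT replicate 4 lay below 3 of them. The difference was 0.35 ± 0.19 (adjusted p = 0.17) with a 95% interval of -0.09 to 0.79. Of its 2 probe sets, 1415964_at differed by 0.13 and 1415965_at by 0.57, and neither passed. Fitted without the block and without BAT replicate 4, Scd1 differed by 0.49 and passed (adjusted p = 0.044), a fit chosen with the values in view, and with each of the 16 arrays in the fit and the replicate as a random block it passed at 0.35 (adjusted p = 0.047). These were 2 of 16 alternatives, and without replicate 3 the difference was 0.15 (adjusted p = 0.45). The gene closest to Scd1 over the 8 values was Ddx3x, an X-linked RNA helicase, at a mean absolute difference of 0.11.

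Scd2, the stearoyl-CoA desaturase known from brain and preadipocytes, had 3 probe sets that disagreed. Probe set 1415822_at was called lower in BAT, at 0.24, 0.96, 0.00 and 0.37 in sWAT replicates 1 to 4 and -0.63, -0.40, -0.81 and -0.03 in BAT replicates 1 to 4, without overlap, and differed by -0.86 ± 0.18 (adjusted p = 0.010). Probe set 1415823_at differed by -0.79 ± 0.39 (adjusted p = 0.16). It was called lower in 2 of 14 alternatives, among them the second arrays alone (-1.64, adjusted p = 0.0499 by limma), and differed by 0.07 on the first arrays alone. Probe set 1415824_at stood at 2.05, -0.98, 0.91 and -0.58 in sWAT and -0.30, 2.37, 1.12 and -0.82 in BAT, a spread within each tissue far beyond its difference of 0.24 ± 0.78. The mean over the 3 was -0.47 ± 0.26 (adjusted p = 0.19), and it was 0.02 from the first array of each replicate and -0.96 from the second. Replicate number 1 differed by -1.55 and the others by -0.19 to -0.02, and without replicate 1 the mean was -0.11 (adjusted p = 0.54).

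The remaining 5 genes had differences between -0.18 and 0.17, and none passed the test. Elovl5 and Elovl2, which lengthen polyunsaturated fatty acids, differed by -0.03 ± 0.14 and 0.12 ± 0.13, with 95% intervals of -0.35 to 0.29 and -0.20 to 0.43. Elovl5 stood at -0.34 to 0.18 in sWAT and -0.26 to 0.0004 in BAT, and Elovl2, by its single probe set 1416444_at, at -0.23 to 0.10 in sWAT and -0.02 to 0.19 in BAT. The probe sets of Elovl5 differed by -0.18 (1415840_at) and 0.12 (1437211_x_at). Fads2, the entry desaturase of the polyunsaturated pathway, differed by -0.13 ± 0.16 (adjusted p = 0.52), with values of -0.31 to 0.20 in sWAT and -0.31 to 0.03 in BAT. Its probe set 1419031_at differed by -0.34 ± 0.24 (adjusted p = 0.29) but was called lower without replicate 3 (-0.62, adjusted p = 0.048) and on the second arrays alone (-0.94, adjusted p = 0.015), while 1443838_x_at and 1449325_at differed by -0.03 and -0.02. The intervals of these 3 genes lay within 1 log2 unit, so that a 2-fold difference in either direction falls outside them.

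Elovl4, the elongase of ultra-long chains in retina and skin, stood between -0.18 and 0.002 in sWAT and between 0.02 and 0.14 in BAT. The tissues did not overlap, a separation that 28% of all genes showed in this direction and 17.4% in the other, but its difference was 0.17 ± 0.11 (adjusted p = 0.25). Its probe set 1424306_at differed by 0.27 and 1451308_at by 0.08. In all, 2 of the 10 genes lay fully above in BAT, Elovl3 and Elovl4, and 1 fully below, Elovl1. Elovl7, a further elongase of saturated chains, differed by -0.18 ± 0.17 (adjusted p = 0.41), and none of its 6 probe sets was called. They were 1424097_at at -0.62 and 1441891_x_at at -0.55, with adjusted p = 0.079 and 0.093, and 1424098_at, 1441091_at, 1440354_at and 1440312_at between -0.09 and 0.17. Probe sets 1424097_at and 1441891_x_at were each called lower in 2 of 14 alternatives. Among these was the fit without replicate 1 (-0.87 and -0.79, adjusted p = 0.025 and 0.032 by limma). The genes closest to the other members over the 8 values were Igfbp4 for Elovl1 at 0.083, Anapc2 for Scd2 at 0.144, Odf2 for Fads2 at 0.061, Ptprn2 for Elovl2 at 0.018, H2ap for Elovl4 at 0.018, Ranbp10 for Elovl5 at 0.057 and Scn3b for Elovl7 at 0.072. This measure is small wherever a gene varies little.

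Members of like function were compared in 3 pairs, by the difference between both genes in each replicate and a two-sided exact permutation test of 4 against 4, in which 0.029 is the smallest p. Elovl6 minus Elovl5 was 0.19 to 1.45 in BAT and -1.58 to -0.04 in sWAT, without overlap, so that the tissue difference of Elovl6 was 1.57 above that of Elovl5 (exact permutation p = 0.029). Scd1 minus Scd2 differed by 0.82 (exact permutation p = 0.057) and Elovl3 minus Elovl6 by 3.91 (exact permutation p = 0.057). Adjusted over the 3 pairs, each exact permutation p was 0.057, so none passed 0.05. The pairs were chosen with earlier results of these data known, so these p-values only describe them.

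Of the enzymes that complete the elongation cycle with the elongases, those of reduction and dehydration included genes with higher expression in BAT. Of 7 genes, 4 were called higher and 0 lower by limma, with 1 lower at an unadjusted p under 0.05 and 0 lower by the fit without the block, and the median difference was 1.14. Over all genes 21% were called higher and 17.5% lower, the shares to set beside this list and those below. All of these lists were chosen with earlier results of these data known. By the paired test of the methods 0 were called in either direction, with 2 higher and 1 lower at an unadjusted p under 0.05. The dehydratase genes Hacd1 and Hacd2 differed by 1.28 ± 0.20 and 1.14 ± 0.22, the ketoacyl-CoA reductase gene Hsd17b12 by 1.14 ± 0.31, and Tecrl, a relative of the enoyl-CoA reductase, by 0.92 ± 0.23. Hacd1 and Tecrl are known from muscle. The muscle markers were higher in all BAT replicates than in sWAT. They were highest in BAT replicate 4, where Tecrl stood at 0.46 against 1.37, 1.32 and 0.08 in BAT replicates 1 to 3 and Hacd1 at 0.42 against 0.56, 0.37 and 0.38. The part of muscle in the differences of both genes was not tested. The call of Tecrl was lost without replicate 1 or replicate 2, and that of Hsd17b12 without replicate 1. Tecr, the enoyl-CoA reductase itself, differed by 1.21 ± 0.44 and did not pass (adjusted p = 0.065), but passed in 5 of 15 alternatives, among them that without the 2 arrays of low 5′ signal (1.36, adjusted p = 5.5e-04). Its difference ran from 0.17 (adjusted p = 0.83) on the second arrays alone to 2.25 (adjusted p = 0.015) on the first. Hacd3 and Hacd4 differed by -0.25 and -0.56 and did not pass, but were called lower in 4 of 15 and 2 of 16 alternatives. Among these were Hacd3 without the 2 arrays of low 5′ signal (-0.29, adjusted p = 0.047) and Hacd4 without replicate 4 (-0.73, adjusted p = 0.039).

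Of 8 genes that make or break down the substrate of elongation and its precursors, 6 were called higher in BAT and 0 lower, with 0 lower also at an unadjusted p under 0.05 or by the other tests, and the median was 1.25. By the paired test 2 were higher. The largest differences were those of Mlycd, which breaks down malonyl-CoA, at 1.62 ± 0.15, and Acss2, which makes acetyl-CoA from acetate, at 1.52 ± 0.24. Malic enzyme (Me1) differed by 1.30 ± 0.36, and the acetyl-CoA carboxylases Acacb and Acaca, which make malonyl-CoA, were both called, Acacb at 1.27 ± 0.11 (adjusted p = 2.5e-04) and Acaca with adjusted p = 0.0087. ATP citrate lyase (Acly) differed by 0.91 ± 0.22. Fatty acid synthase (Fasn) differed by 0.95 ± 0.44 and the citrate carrier gene Slc25a1 by 1.23 ± 0.54, and neither passed (adjusted p = 0.12 and 0.11), with sWAT replicate 3 at -2.09 and -2.69. Without the 2 arrays of low 5′ signal both passed, Fasn at 0.83 (adjusted p = 0.034) and Slc25a1 at 1.25 (adjusted p = 0.019). Slc25a1 also passed without replicate 3, at a smaller difference of 0.42 (adjusted p = 0.043). Over the 16 alternatives run for each, Fasn passed in 2 and Slc25a1 in 4. Of the calls in this list, that of Me1 was kept in 9 of 16 alternatives and that of Acly in 12 of 16, and both were lost without replicate 1 or without replicate 2. Of all genes, the one closest to Elovl6 over the 8 values was transketolase, Tkt, at a mean absolute difference of 0.19, and Acss2 lay at 0.23.

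Among the known regulators of these genes, 5 of 11 with a value were called higher in BAT and 0 lower by limma. The median was 0.43, and 0 were lower at an unadjusted p under 0.05, by the fit without the block or by the paired test. Ppara, the nuclear receptor of fatty acid oxidation, stood between -1.90 and -1.48 in sWAT and between 1.95 and 3.20 in BAT, and differed by 4.32 ± 0.23, or 19.9-fold. Mlxipl, which encodes the glucose-responsive factor ChREBP, differed by 2.34 ± 0.28, the lipogenic gene Thrsp by 1.16 ± 0.25, Srebf1, the sterol-responsive factor of lipogenesis, by 1.03 ± 0.13, and Insig2 by 0.49 ± 0.11, a call lost without replicate 2 or replicate 4. The lowest differences were those of Scap, the escort of the Srebf factors, at -0.27 and the sterol sensor Insig1 at -0.19, and neither passed. Scap was called lower in 1 of 16 alternatives, that without the 2 arrays of low 5′ signal (-0.31, adjusted p = 0.042 by limma). Nr1h2 had no value.

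Other desaturases and the electron carriers went in both directions, with 3 of 12 genes called higher, 2 lower and a median of 0.15. The cytochrome b5 of the outer mitochondrial membrane, Cyb5b, differed by 0.91 ± 0.18, the desaturase Scd3 by 0.51 ± 0.13 and the reductase gene Cyb5r1 by 0.38 ± 0.12. The cytochrome b5 gene Cyb5a and the reductase gene Cyb5r3 differed by 0.27 ± 0.12 and 0.46 ± 0.28. Neither passed (adjusted p = 0.12 and 0.22 by limma), nor did the reductase genes Cyb5r2 and Cyb5r4 at 0.24 and -0.12. The desaturase relative Fads3 differed by -1.26 ± 0.32 and Degs1, the dihydroceramide desaturase, by -0.63 ± 0.19. The calls of Cyb5r1, Degs1 and Scd3 were kept in 4 of 14, 9 of 16 and 11 of 16 alternatives, and each was lost without replicate 1 and without replicate 2, that of Cyb5r1 without any 1 of the 4 replicates. Fads3 was also lost without replicate 1 or replicate 2. Scd4 had no value. Ceramide synthases, which join very long acyl chains to sphingoid bases, had 1 of 5 called higher, Cers2 at 0.69 ± 0.18, and 3 lower, Cers6 at -1.93 ± 0.31, Cers4 at -0.66 ± 0.20 and Cers5 at -0.52 ± 0.13. Their median was -0.52, Cers3 differed by 0.22 and did not pass, and Cers1 had no value. The calls of Cers4, Cers5 and Cers2 were kept in 8 of 16, 8 of 15 and 10 of 15 alternatives, with those of Cers4 and Cers5 lost without replicates 1, 2 or 4 and that of Cers2 without replicate 2. By the paired test 0 genes of both lists were called, with 4 desaturase and carrier genes higher and 2 ceramide synthases lower at an unadjusted p under 0.05. Fads3, Cers6, Elovl1 and 3 of 4 macrophage markers were lower in BAT with BAT replicate 1 lowest, and the macrophage markers averaged -1.68, -0.89, -0.79 and 0.36 in BAT replicates 1 to 4 and -0.14 to 0.74 in sWAT, whose part was not tested.

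Over the 5 lists, 19 of 43 genes were called higher in BAT and 5 lower, with a median of 0.46 against 0.15 over all genes. The shares called over all genes were 21% higher and 17.5% lower. The lists were chosen with earlier results of these data known, so a larger share in them is no test of the pathway. The count without replicate 4 was 16 and 4, and without the 2 arrays of low 5′ signal it was 24 and 7. Without replicate 2 it was 12 and 1, and without replicate 1 it was 14 and 1. The paired test of the methods called 6 and 0, with 3 lower at an unadjusted p under 0.05. Of all 18194 genes the main fit called 3812 higher and 3177 lower. The counts were 2802 and 2858 without replicate 4 and 5225 and 3728 without the 2 arrays of low 5′ signal. They were 2338 and 2289 without replicate 2, 2745 and 2439 without replicate 1, and 1830 and 1737 by the paired test.

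BAT replicate 4 was close to sWAT for part of these genes. Both members called higher, Elovl3 and Elovl6, lay closer in BAT replicate 4 to the sWAT mean than to the mean of the other 3 BAT replicates. The same held for 7 of the 19 pathway genes called higher, Hsd17b12, Hacd2, Acly, Acss2, Acaca, Me1 and Insig2, against 2, 0 and 2 of the 19 for BAT replicates 1 to 3. Over all 3812 genes called higher in BAT the share was 15.1% for BAT replicate 4 and 7.35%, 2.65% and 6.72% for BAT replicates 1 to 3. Hacd2 stood at 1.24, 1.24 and 0.77 in BAT replicates 1 to 3 and at -0.19 in BAT replicate 4, where the sWAT values were -0.57 to -0.22. Acss2 stood at 1.25, 1.69 and 0.95 in BAT replicates 1 to 3 and at -0.14 in BAT replicate 4.

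For other genes BAT replicate 4 lay near the rest of BAT. Ppara stood at 2.70 in BAT replicate 4 and Mlycd at 1.17, within the range of the other BAT replicates. Acacb stood at 0.59 against 0.65 to 0.86 in the others and -0.65 to -0.42 in sWAT. The mean of the brown adipocyte markers was 2.71, 2.56, 2.49 and 1.69 over BAT replicates 1 to 4, with Ucp1 at 4.33, 4.53, 4.39 and 2.75. Since BAT replicate 4 also differed in the sex-linked and muscle genes, these features cannot be told apart with a single replicate.

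**Figure D3:**
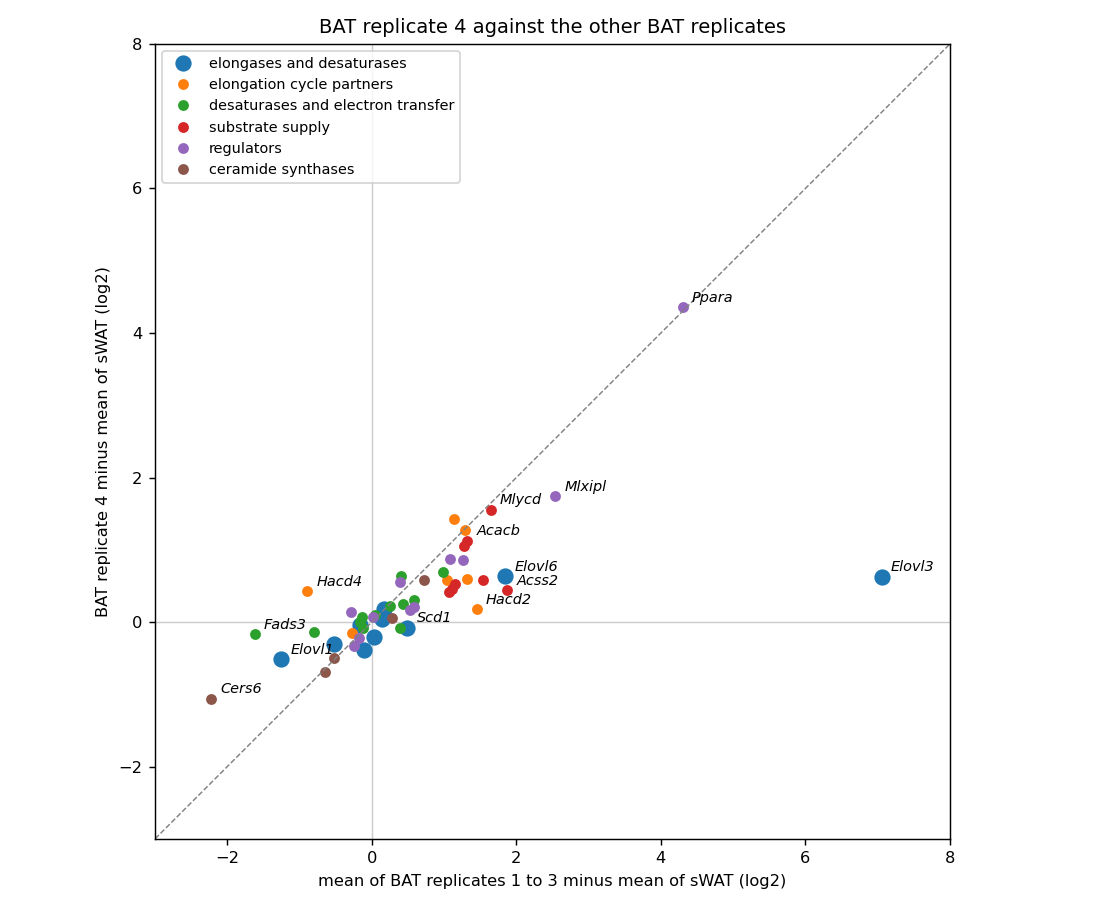
BAT replicate 4 against the mean of BAT replicates 1 to 3, each minus the mean of sWAT on the log2 scale, for the 10 genes (large points) and the 43 other genes of the pathway, with the dashed line marking equal values. Elovl3 lies at 7.06 and 0.63, far below the line, and Ppara lies on it.

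**Figure D4:**
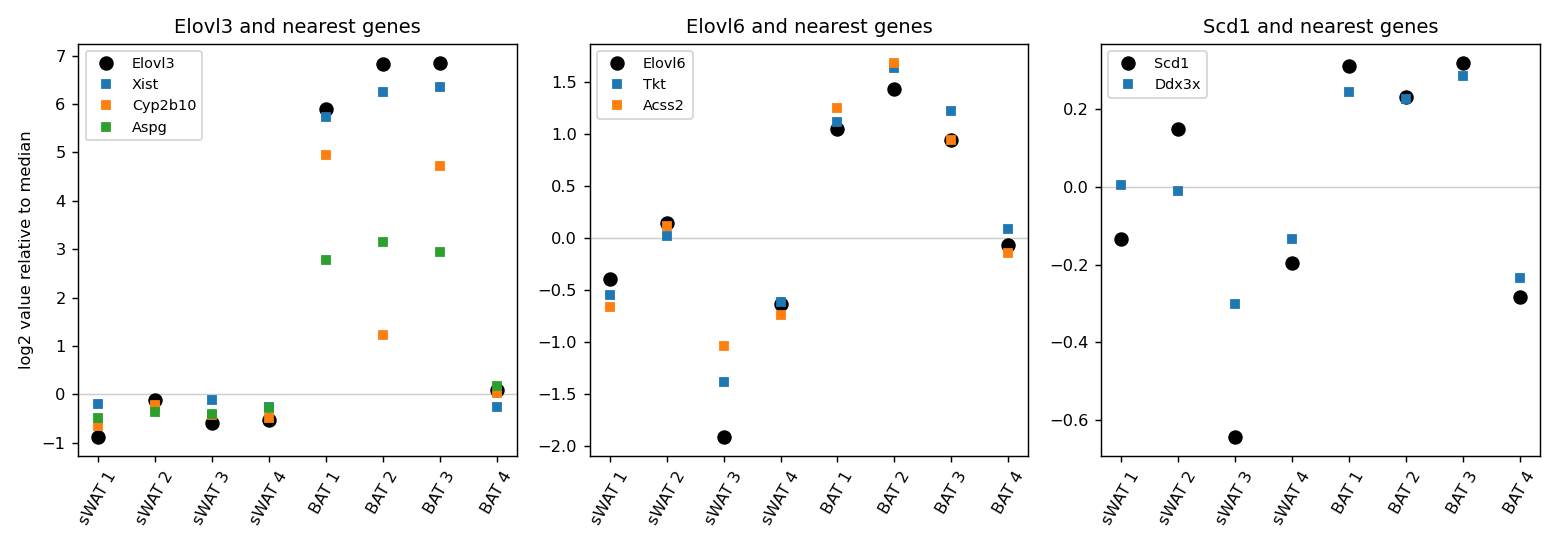
Value in each replicate, as log2 relative to the median over the arrays, of Elovl3, Elovl6 and Scd1 (black) and of genes closest to them by the mean absolute difference (coloured). Xist lies 0.40 from Elovl3 on average over the 8 values, and Tkt 0.19 from Elovl6.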

How the data were processed

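Subcutaneous white and interscapular brown fat of LACA mice were measured on 16 arrays. The authors normalised the arrays by RMA with quantile normalisation in GeneSpring and took the median of all samples as baseline, so that the deposited values are log2 values with a median of 0 for every probe set. Levels and a filter on dim probes cannot be had from them. Names of probe sets are those of the annotation of the platform, in which 34958 name 1 gene, 932 several and 9211 none. The value of a gene is the mean over its probe sets with 1 symbol, and the 2 arrays of a replicate were averaged. The difference between BAT and sWAT was fitted in R 4.3.3 by lmFit and eBayes of limma 3.58.1. Replicate numbers entered as a block since the methods use a paired test, though numbers 1 to 3 held opposite sex-linked values in the 2 tissues. Benjamini-Hochberg adjustment was over 18194 genes or 45101 probe sets. The fit was tested on simulated data. Permutation tests and figures were made in Python 3.11.15 with scipy 1.17.1 and matplotlib 3.10.9.

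The members, the pathway lists and the pairs were chosen with earlier results of these data known, and the lists were not tested as sets. The text names all members with their probe sets, the genes of the pathway lists with the 2 largest and 2 smallest differences of each, the 3 genes closest to Elovl3 and the closest gene of the others. Marker and sex-linked genes are given only as values beside a result. Promoter windows are from RefSeq on GRCm38.p6, and matches are exact. Alternatives were the fit without the block, 1 array per replicate, all arrays with a random block, the paired test of the methods, each replicate left out, the 2 arrays of low 5′ signal left out, arrays centred on their median or scaled to the 3′ probe sets of Gapdh and Actb, features of larger SD, the probe set of largest SD per gene, and no probe sets with the suffix _s_at, _x_at or _a_at, here called probe sets of shared sequence. The paired test of the methods was run here as a paired t-test on the 4 averaged pairs. The fit without the block and without BAT replicate 4 was added after the values were seen.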

Additional observations from a re-analysis of the deposited data

Results flagged for a closer look

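In 8 of 156 groups of 4 values, members and pathway genes, 1 replicate lay so far from the other 3 that its gap exceeded the 95% critical value of Dixon for the range of the group, and chance gives about 1 in 20 such groups. Elovl3 in BAT replicate 4 stood at 0.10 against 5.89 to 6.86 in the others. Scd1 in BAT replicate 4 stood at -0.28 against 0.23 to 0.32, and its probe set 1415965_at there at -0.51 against 0.41 to 0.56. Hacd3 in BAT replicate 2 stood at -0.40 against -0.11 to -0.06. In sWAT replicate 3, which holds an array of low 5′ signal, Fasn stood at -2.09 against -0.10 to 0.27 and Mlx at -1.13 against -0.09 to 0.03. Cyb5r1 in sWAT replicate 2 stood at 0.026 against -0.28 to -0.23, and the Elovl1 probe set 1456530_x_at in sWAT replicate 1 at 0.40 against 0.70 to 0.72.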

How the results depend on the processing

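The direction of the difference was kept for Elovl3 and Elovl6 under all 16 alternatives run for each and for Elovl1 under all 15 run for it. The differences were 4.78 to 7.06, 1.10 to 1.87 and -1.25 to -0.29. The calls of Elovl3, Elovl6 and Elovl1 were kept in 15 of 16, 14 of 16 and 13 of 15. Replicates of equal number did not all deviate together, their deviations in BAT and sWAT correlating at -0.23, 0.06, -0.35 and 0.23. By the sex-linked values numbers 1 to 3 did not come from 1 animal, and for number 4 this is not settled. Without the replicate block, 2 member genes were higher and 1 lower, 2 probe sets higher and 4 lower, and 18 pathway genes higher and 5 lower, and the 3 member genes called with the block were called without it. The paired test of the methods left 0 member genes higher and 0 lower (3 and 1 at an unadjusted p under 0.05), 0 probe sets higher and 2 lower (1 and 4 unadjusted), and 6 pathway genes higher and 0 lower (3 lower unadjusted). With the probe set of largest SD for each gene, 1 member gene was higher, Elovl6 being lost at 1.66, and 0 lower (1 unadjusted), Elovl1 being lost at -0.29, and 3 pathway genes were lower. Without probe sets of shared sequence 0 member genes were lower by limma (0 unadjusted), as all 4 of Elovl1 were removed. With all arrays and a random block, 6 probe sets were higher. Leaving out single replicates gave 2 member genes higher and 1 lower each time, 0 to 4 probe sets higher and 4 to 6 lower, and 12 to 19 pathway genes higher and 1 to 5 lower. The count of 0 was without replicate 1 (4 at an unadjusted p under 0.05 by limma), where 1417404_at, 1420722_at and 1442656_at were lost. Pathway genes lower numbered 2 on the first arrays alone, 3 with arrays centred on their median and 2 when scaled to the 3′ probe sets of Gapdh and Actb. The cause of these changes was not tested. The direction of all 3 pairs was the same on the first or second arrays alone and with each replicate left out, the other alternatives not being run for them, and with the replicate block, by exact sign flips, each exact p was 0.125, the smallest possible with 4 pairs. With 3 replicates per tissue the smallest exact permutation p is 0.1. Centred values give no signal over background, so what depth limits cannot be stated.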
